A study of Bos taurus with 3 samples.

Results

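Argonaute, which uses microRNAs (miRNAs) as guides to find transcripts, was found in coding sequence at 81 of the 402 sites listed for bovine retina. These 81 sites are the lines of both strand tables whose location class, given by the authors, is coding sequence. They lay in 60 genes on 25 chromosomes, 41 of them on the plus and 40 on the minus strand, and each was a peak in all 3 replicates, giving 243 peaks. The libraries were made by HITS-CLIP, in which ultraviolet light links RNA to bound protein and the RNA that co-purifies with the protein is sequenced. Retina was dissected from enucleated eyes of cattle of mixed strain, broken into clusters of cells and exposed 3 times to 400 mJ of ultraviolet light per square centimetre. The 3 samples form 1 group, numbered as replicates 1 to 3, and carry no treatment, genotype or age in the labels. Every comparison therefore lies within the list of sites, and whether the replicates are separate animals is not stated, so their spread may be technical.

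A miRNA guides Argonaute by pairing, mostly through the bases near its 5' end, with a matching stretch of an mRNA, which is then silenced. Most well-studied target sites lie in the 3' UTR, where no ribosome passes. Sites in coding sequence are known from cell lines and from brain, and silencing through them is usually described as weaker, since translating ribosomes can displace the silencing complex. In photoreceptors, a few transcripts that encode the proteins of the light response are present at very high levels.

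The gene content of the coding sites was checked against cell type markers. All 8 rod markers carried a site of some class, and 6 of them, among them GNAT1, PDE6A, PDE6G, CNGA1 and SAG, carried a coding site. Of 5 cone markers, 2 carried a site and 1, ARR3, a coding site. None of 29 markers of Müller glia, bipolar, amacrine, horizontal and ganglion cells, pigment epithelium, blood, microglia and vessels carried a site. Of the 60 gene names, 55 matched a symbol and 3 a synonym in the NCBI RefSeq table of assembly ARS-UCD2.0, and the names C16ORF72 and TSC22DA matched none. For 57 of the 58 matched names the chromosome was the same in both, while UBAP2 was listed on chromosome 7 in the files and on chromosome 8 in the table. The listed sites held 6421, 5779 and 4114 tags in replicates 1, 2 and 3, where a tag is a sequenced fragment counted in a peak. Coding sites held 964, 960 and 639 of these, or 15.7% ± 0.816 (SD, n = 3).

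Coding sites were shorter than 3' UTR sites and held fewer tags, while the medians per length were nearly level. The median length of a coding peak was 65, 63 and 55 nt in replicates 1, 2 and 3, against 89, 84 and 68 nt for the 223 sites in 3' UTRs. Coding peaks were thus shorter in 3 of 3 replicates, by 19.3 ± 5.69 nt (SD, n = 3). An exact sign-flip permutation over the 3 replicates, two-sided, gave p = 0.25 for this difference, which is the smallest value that 3 replicates allow. Median tags per coding peak were 11, 9 and 6, against 14, 11 and 7 in 3' UTRs, a difference of -2 ± 1 (SD, n = 3, exact sign-flip permutation, p = 0.25). Scaled to 100 nt of peak, the medians were 16, 14.7 and 12.5 tags in coding sequence and 16, 14 and 12.5 in 3' UTRs. That difference was 0.25 ± 0.39 (SD, n = 3, exact sign-flip permutation, p = 0.5), smaller than its spread over replicates. A count of 6 tags, the coding median of replicate 3, has an exact Poisson 95% interval from 2.2 to 13.1, which covers counting error only.

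**Figure D1:**
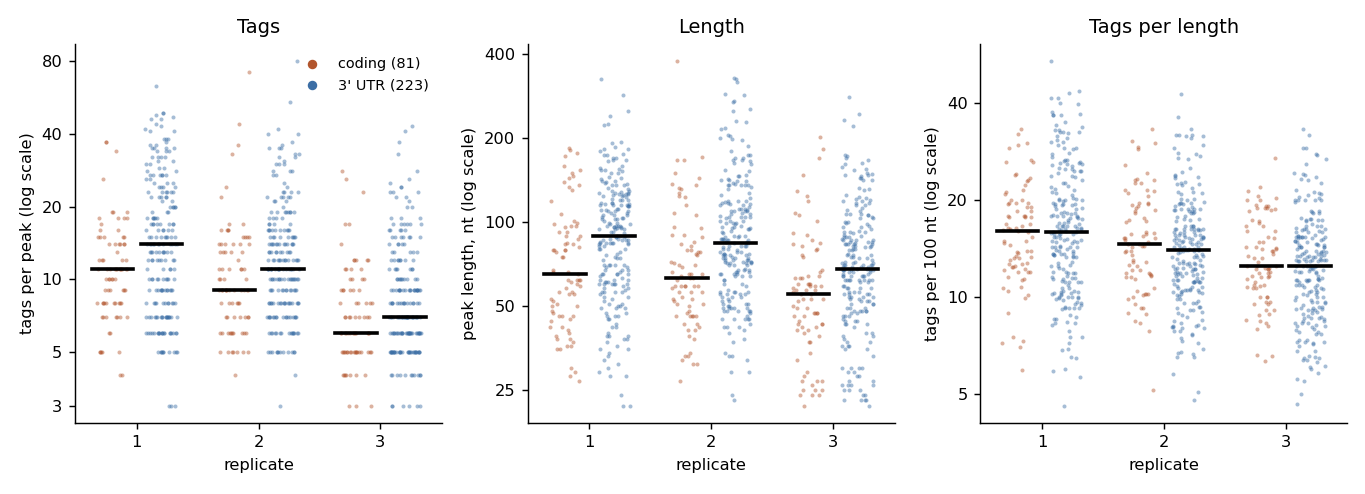
Tags per peak, peak length in nt and tags per 100 nt (all on log scales) for each replicate, with 1 point per peak, coding sites in brown, 3' UTR sites in blue and a black bar at each median. The coding medians lie below the 3' UTR medians for tags (11, 9 and 6 against 14, 11 and 7) and length (65, 63 and 55 against 89, 84 and 68 nt), and nearly level with them for tags per 100 nt.

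The deposited fold enrichment of a peak had the same medians in both classes. These fold enrichments were whole multiples of 1 step in each strand table and replicate, to within 0.01 of a step. The median coding peak reached 7, 7 and 5 steps in replicates 1 to 3, as did the median 3' UTR peak. Tall sites were fewer in coding sequence: 4 of the 81 had a mean above 20 tags (4.94%), against 33 of 223 in 3' UTRs (14.8%). A mean of 10 tags or more was reached by 33 coding sites (40.7%) and by 132 sites in 3' UTRs (59.2%). Across the 81 coding sites, longer peaks held more tags within each replicate, with Spearman correlations of 0.672, 0.689 and 0.706 in replicates 1, 2 and 3. These sites share a library and some share a gene, so the correlations are descriptive only.

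The summits of coding peaks, the points of highest pile-up, fell close together in the 3 replicates. The distance from the lowest to the highest of the 3 summits had a median of 7 nt in coding sites and 12 nt in 3' UTR sites. It was 10 nt or less at 53 coding sites (65.4%) and at 102 sites in 3' UTRs (45.7%). Its median was 6.5 nt in the 34 intron sites and 1 nt in the 30 sites classed as non-coding RNA. The measure takes all replicates at once, so it has no test over replicates. Over all 402 listed sites it never exceeded 39 nt, while 5' ends lay up to 383 nt and 3' ends up to 452 nt apart. The rule by which sites were listed is not given, so whether it demanded close summits was not tested. Between pairs of replicates, the median summit distance in coding sites was 5 nt for replicates 1 and 2, 6 nt for 1 and 3 and 4 nt for 2 and 3, against 7, 7 and 6 nt in 3' UTRs. Divided by the mean length of the peak, the median spreads of the classes differed by -0.026 of a peak length, still smaller in coding sites. At 2 coding sites, GNB1 site 4 and the site of NF1, the 3 summits fell on the same base. Here and below, sites of a gene are numbered from the 5' end of its transcript. Among the widest spreads were 38 nt at SAG site 4, 36 nt at HSPA8, 33 nt at ROM1 and 30 nt at SAG site 5.

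The 3' ends of coding peaks agreed better than their 5' ends. Read in the direction of transcription, the 5' ends of the 3 peaks of a site were spread over a median of 24 nt, and the 3' ends over 10 nt. The 3' ends lay within 5 nt of each other at 26 of the 81 coding sites (32.1%), and the 5' ends at 12 (14.8%). The 5' ends were further apart than the 3' ends at 46 coding sites and closer at 33, and 2 sites were equal. The order held on each strand, with 20 against 11 nt for plus-strand sites and 29.5 against 10 nt for minus-strand sites. It held in each pair of replicates as well: 15 against 8 nt for replicates 1 and 2, 15 against 6 nt for 1 and 3, and 11 against 4 nt for 2 and 3. On the plus strand alone, the pair of replicates 1 and 2 was an exception, at 8 nt for both ends. The same order was present in 3' UTR sites, at 34 against 21 nt, and in intron sites, at 26 against 6 nt. Sites classed as non-coding RNA had the reverse, at 2 against 23 nt.

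**Figure D2:**
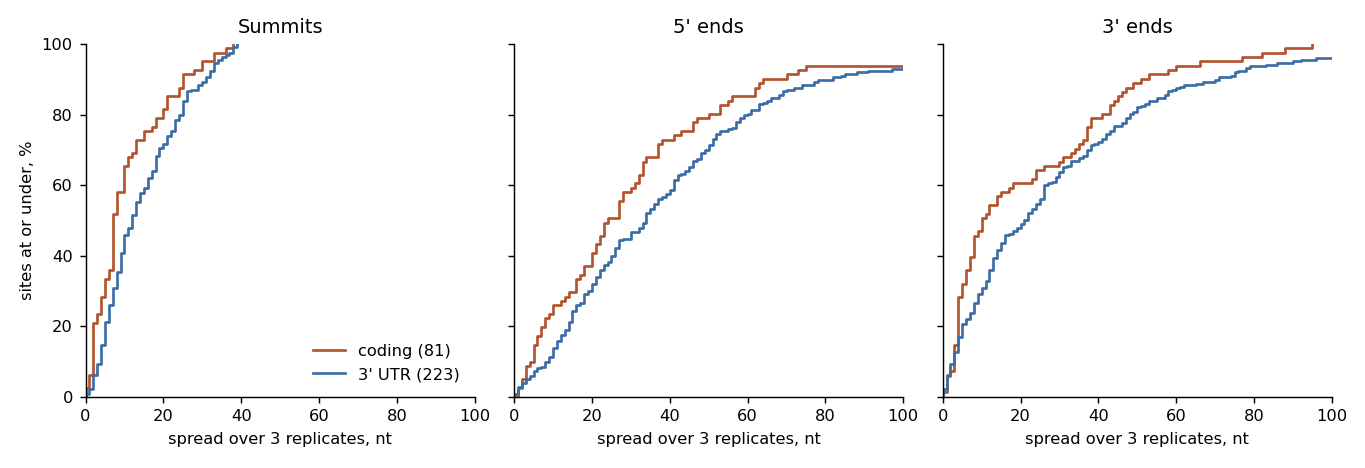
Cumulative share of sites (percent) by the spread, in nt, of the 3 summits, the 3 peak ends on the 5' side and the 3 peak ends on the 3' side over the replicates, for 81 coding sites in brown and 223 sites in 3' UTRs in blue; spreads above 100 nt are beyond the axis. The coding medians are 7 nt for summits, 24 nt for 5' ends and 10 nt for 3' ends, against 12, 34 and 21 nt in 3' UTRs.

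The 3 peaks of a coding site shared a stretch of 22 to 155 bases, with a median of 42, which was 44.8% of the stretch they covered together (44.6% in 3' UTRs). All 3 summits lay inside the shared stretch at 75 of 81 coding sites (92.6%, against 87.4% in 3' UTRs), and the 6 exceptions included those in ALPL, DDX5, EPM2AIP1, FBXL5 and HSPA8. At 35 coding sites the longest of the 3 peaks was more than 2 times as long as the shortest. The largest ratios were 8.17 at RBP3 site 3, 6.15 at FBXL5 and 6.08 at GNAT1 site 3. The widest peak also held the most tags at 59 sites, ties counted. Replicate 1 alone held the most tags at 42 coding sites, replicate 2 at 26 and replicate 3 at 5, with 8 ties. The tag totals in coding sites had the same order, 964, 960 and 639, though those of replicates 1 and 2 were nearly equal. Replicates 2 and 3 were the most alike in tags across coding sites (Spearman 0.551, against 0.352 for 1 and 2 and 0.209 for 1 and 3).

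Whether a site's tags were spread over the replicates beyond counting error was asked with an exact multinomial test on all 402 sites, after scaling the replicates by the median ratio over sites. Of all sites 4.98% passed at an adjusted p under 0.05 (Benjamini-Hochberg), and of the 81 coding sites 1 did, or 1.23%. Sites with few tags pass less easily and coding sites held fewer tags than 3' UTR sites, so these shares do not compare reproducibility. At an unadjusted p under 0.05 there were 4 coding sites, among them 2 of RBP3 and the site of ROM1, while 14.7% of all sites (59 of 402) passed that threshold. The site that passed was RBP3 site 3, on chromosome 28 (42010451 to 42010829). Its tags numbered 6, 72 and 26, lowest in replicate 1 and highest in replicate 2, and the exact multinomial test gave an adjusted p of 1.44e-14. RBP3 encodes the retinoid-binding protein of the matrix between photoreceptors and pigment epithelium. The 3 peaks of this site agreed on the summit to within 2 nt and on the 3' end to within 3 nt, while their 5' ends lay up to 332 nt apart and their lengths were 46, 376 and 183 nt. The fold enrichment of the 3 peaks stood at 4, 13 and 11 steps, again lowest in replicate 1. With the expected share of each replicate weighted by its peak length the call was lost (exact multinomial test, adjusted p = 0.954). Longer peaks held more tags, so this weighting moves part of a difference in tags into the expected shares. Its loss of the call therefore does not show that the tags were even. Without replicate 1 the call was lost too (exact multinomial test, adjusted p = 0.058). With the same weighting 0.498% of all sites passed. They included 1 coding site, GNB1 site 3, whose 15, 24 and 10 tags lay in peaks of 144, 72 and 53 nt (exact multinomial test, adjusted p = 0.0176, against 0.562 without the weighting).

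After the RBP3 site, the tallest coding sites varied less. PDE6G site 2 had 37, 44 and 28 tags, or 36.3 ± 8.02 (n = 3), on chromosome 19 (52243054 to 52243225). PDE6G is the inhibitory subunit of rod phosphodiesterase, and its 3 peaks were of 158, 171 and 169 nt with summits within 1 nt. The site of CRLF3, a cytokine receptor-like protein and no member of a photoreceptor list, held 37, 36 and 23 tags, or 32 ± 7.81, on chromosome 19 (17854773 to 17854915). Per length it was the densest of all 81 coding sites, at 25.1 tags per 100 nt. Both lay, with RBP3 site 3, among the 4 sites with a mean above 20 tags.

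Other sites among the 10 tallest had means between 14.3 and 16.7 tags. PRPH2, which shapes the rims of outer segment discs, held 18, 15 and 17 tags on chromosome 23 (16884062 to 16884324), the least variable of the 10 tallest relative to its mean. GNB1 site 3 held the 15, 24 and 10 tags given above, highest in replicate 2. PDE6A site 1, with 19, 17 and 8 tags, PCM1, with 16, 15 and 12, and RBP3 site 1, with 9, 22 and 12, were of like height. PDE6A is the alpha catalytic subunit of rod phosphodiesterase, and PCM1 is a scaffold of the satellites around centrioles. The ranges of these sites overlapped one another, so their order does not exceed the replicate spread. Among the longest coding sites, by mean peak length, were RBP3 site 3 (202 nt), PRPH2 (169 nt), PDE6G site 2 (166 nt) and PDE6A site 1 (136 nt), which are also among the 10 tallest.

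**Figure D3:**
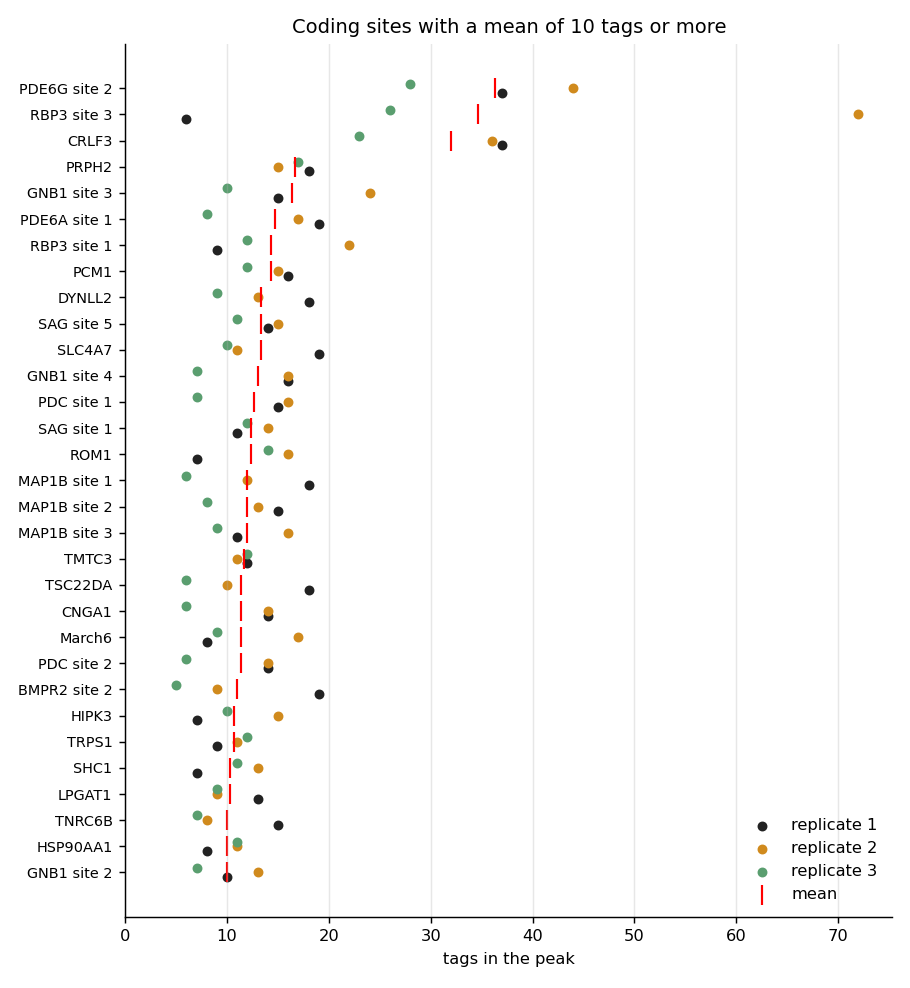
Tags in the peak of each replicate (points) and their mean (red bar) at 31 coding sites with a mean of 10 tags or more, with sites of a gene numbered from the 5' end of its transcript. RBP3 site 3 runs from 6 to 72 tags, while PRPH2 stays between 15 and 18.

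At the other end of the length scale, the 5 shortest coding sites had mean lengths from 35.3 to 39.3 nt. SAG site 2 held 11, 4 and 10 tags, and GPI, a glycolytic enzyme, held 12, 6 and 7, both in peaks of 32 to 38 nt. TXNDC11, a thioredoxin domain protein, held 7, 5 and 3 tags, and ARMCX3, a mitochondrial protein, 5, 6 and 7. ATP5G3, a membrane subunit of mitochondrial ATP synthase, held 5, 6 and 4. Per length these 5 sites ran from 13 tags per 100 nt at ATP5G3 to 23.1 at SAG site 2, around the coding median of 14.8.

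Genes of the light response held 25 of the 81 coding sites. Of the 33 members of the phototransduction list 14 carried a site of any class and 11 a coding site, while 60 of the 258 named genes outside miRNA genes (23.3%) carried a coding site. The list was drawn up with results of these data known, so its count is not independent evidence. In the transducin step, GNAT1, the rod alpha subunit, had 3 sites of 10, 8 and 8, of 11, 7 and 9, and of 11, 9 and 3 tags. GNB1, the rod beta subunit, had 4, of 5, 8 and 11, of 10, 13 and 7, of 15, 24 and 10, and of 16, 16 and 7 tags. The cone beta subunit GNB3 had 1 site of 12, 7 and 6 tags. In the transducin step no coding site thus rose above a mean of 16.3 tags. PDC, or phosducin, which binds the beta and gamma subunits, had 15, 16 and 7 tags at site 1 and 14, 14 and 6 at site 2. UNC119, a lipid-binding carrier of transducin alpha, had 9, 5 and 4.

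In the effector step, PDE6A had 17, 7 and 5 tags at its site 2 and PDE6G 8, 6 and 5 at its site 1, both lower than the other site of the same gene in every replicate. CNGA1, a subunit of the rod cation channel, had 14, 14 and 6 tags. The shut-off step was represented by the arrestins, which bind activated photopigment. SAG, the rod arrestin, had the most coding sites of any gene, 6, with 59.3 ± 8.62 tags in all (67, 61 and 50). Its sites 1, 3, 4, 5 and 6 held 11, 14 and 12, then 11, 9 and 3, then 8, 9 and 8, then 14, 15 and 11, and last 12, 10 and 6 tags. ARR3, the cone arrestin, had 1 site of 6, 13 and 7 tags.

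The median tags of coding sites were higher in phototransduction genes than in the other genes, by an amount that depended on the sites taken. The medians were 12, 13 and 7 tags over 25 sites, against 10, 9 and 6 over 56 sites. This difference of 2.33 ± 1.53 tags (SD, n = 3) had the same direction in 3 of 3 replicates (exact sign-flip permutation, p = 0.25, the smallest possible). Scaled to 100 nt of peak it was 0.29 ± 0.54 (exact sign-flip permutation, n = 3, p = 0.75), less than its spread. In fold enrichment steps it was 0.33 ± 0.58 (n = 3), again less than its spread. The difference in tags was 0.67 ± 2.75 among sites with a mean of 10 tags or more (exact sign-flip permutation, n = 3, p = 1), 1.5 without replicate 2, and 4 ± 2 with only the highest site of each gene. Several of the 25 sites share a gene, and mRNA levels were not measured.

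Repeated coding sites were found in 12 genes, which together held 33 of the 81 sites, while the other 48 genes had 1 each. Of the 11 phototransduction genes 7 had 2 or more coding sites, and of the 49 other genes 5 did: RBP3, IMPG2, MAP1B, CLTC and BMPR2. Neighbouring coding sites of a gene were 238 to 43433 nt apart on the genome, introns included, with a median of 3356 nt over 21 gaps. None lay within 100 nt of the next, and 6 gaps were of 1000 nt or less. The closest pair was in PDC, 238 nt apart, and the furthest in PDE6A, 43433 nt apart. The 6 sites of SAG were spread over 25796 nt and the 4 of GNB1 over 18311 nt.

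Within these genes the height of the sites followed no common order along the transcript. In MAP1B, a microtubule-associated protein of neurons, the 3 coding sites all had a mean of 12 tags, with 18, 12 and 6, 15, 13 and 8, and 11, 16 and 9. In PDE6G, site 2 was the taller in every replicate, and in PDE6A, site 1 was. RBP3 site 2 held 8, 14 and 5 tags and was the sparsest coding site per length, at 7.57 tags per 100 nt. IMPG2, a proteoglycan of the interphotoreceptor matrix, had 8, 9 and 5 tags at site 1 and 9, 9 and 4 at site 2, with overlapping ranges. CLTC, the clathrin heavy chain, had 8, 9 and 9 and then 11, 5 and 5. BMPR2, a receptor for bone morphogenetic proteins, had 10, 6 and 6 and then 19, 9 and 5.

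**Figure D4:**
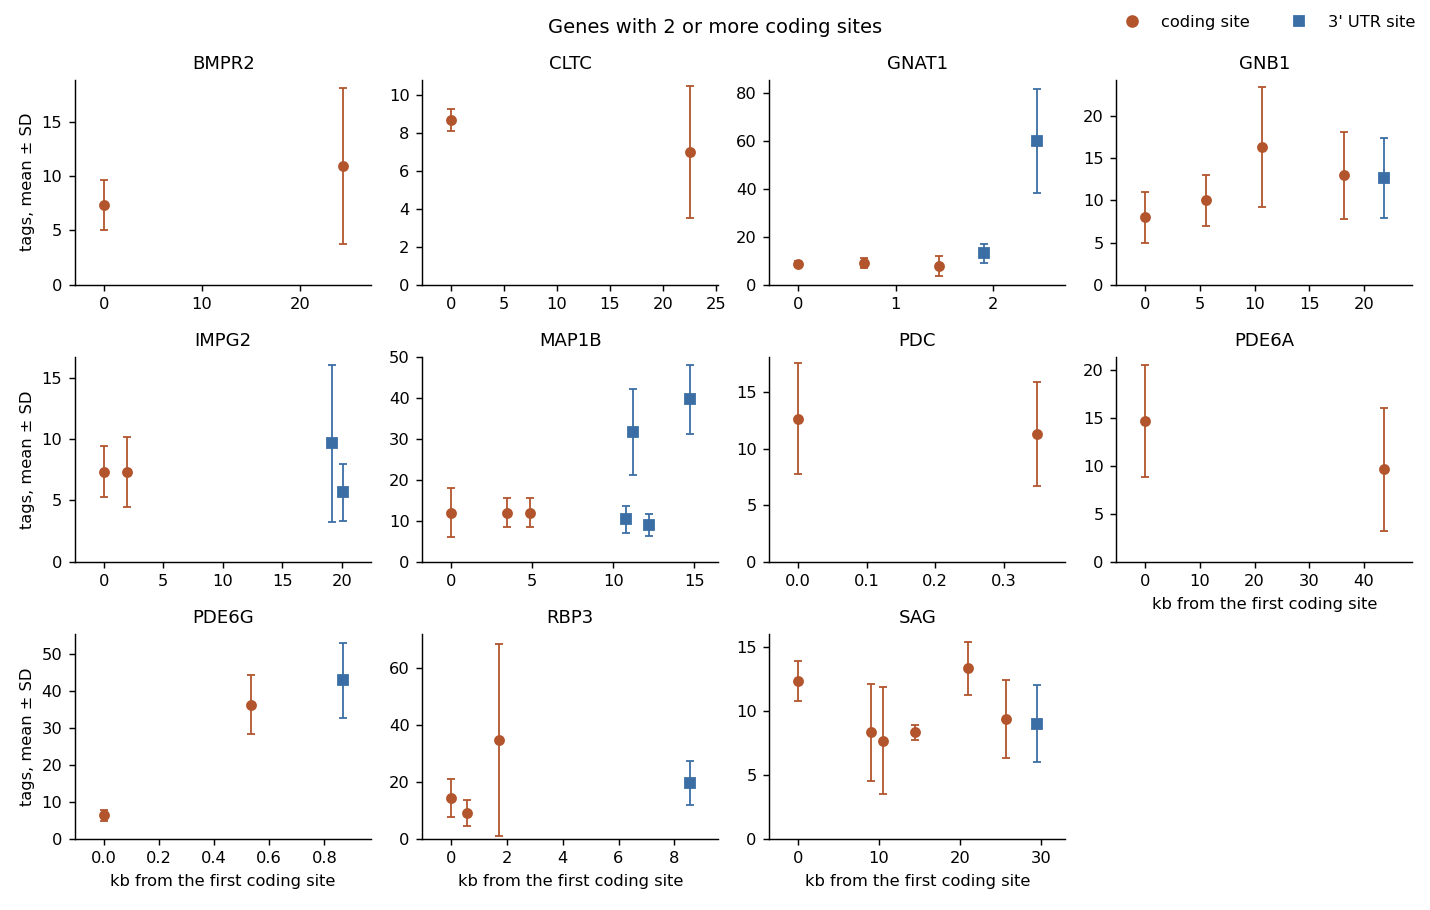
Tags (mean ± SD over 3 replicates) of the coding sites (brown circles) and 3' UTR sites (blue squares) of 11 genes with 2 or more coding sites, by distance in kb along the genome from the coding site nearest the 5' end of the transcript. All coding sites lie upstream of the 3' UTR sites of their gene, as the order of the classes in a transcript implies. In GNAT1 and MAP1B the tallest 3' UTR site stands above every coding site.

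Most genes with a coding site had no other listed site. Coding sites alone were found in 44 of the 60 genes, which held 49 sites, and 16 genes, with 32 coding sites, also had a site in the 3' UTR. None of the 60 had a site of another class. The 16 genes were 26.7% of the genes with a coding site and 8.89% of the 180 genes with a 3' UTR site. A gene without a listed 3' UTR site is not shown to be unbound there, since only peaks that the authors kept are listed. Of the 11 phototransduction genes 7 had coding sites only, among them PDE6A, CNGA1, PDC, UNC119, GNB3 and ARR3, and of the 49 others 37 did.

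Over all their coding sites, these groups of genes differed in tags by less than the spread of the replicates. In genes with coding sites only, the median was 11, 9 and 6 tags, and in genes that also had a 3' UTR site 11, 9.5 and 7.5, a difference of -0.67 ± 0.76 (SD, n = 3, exact sign-flip permutation, p = 0.5). Their peaks had median lengths of 67, 62 and 49 nt against 61.5, 65.5 and 59 nt. This difference of -2.67 ± 7.78 nt (SD, n = 3, exact sign-flip permutation, p = 0.75) changed direction between replicates. The difference in tags depended on the sites taken. It was -0.83 ± 0.29 among sites with a mean of 10 tags or more (n = 3, exact sign-flip permutation, p = 0.25). With only the highest coding site of each gene it was -1.67 ± 1.15 (n = 3, exact sign-flip permutation, p = 0.25). Both exceed their spread, while per 100 nt of peak it was -0.46 ± 0.92, less than its spread.

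In the genes with both classes, the tallest 3' UTR site stood above the tallest coding site more often than below it. It did so in 3 of 3 replicates in 8 of the 16 genes: GNAT1, HIPK3, MAP1B, NF1, RP1, SBNO1, SLC4A7 and TNRC6B. The gap was widest in GNAT1, with 63, 80 and 37 tags in the 3' UTR against 11, 7 and 9 in coding sequence, ranges that do not overlap. In MAP1B the 49, 37 and 33 tags of the tallest 3' UTR site also lay above all coding values of that gene. HIPK3, a nuclear protein kinase, had 20, 40 and 28 tags in its 3' UTR and 7, 15 and 10 in coding sequence, without overlap. These 3' UTR peaks were also longer, at 175, 286 and 232 nt against 35, 132 and 59 nt. Scaled to peak length, the coding site of HIPK3 was the higher in replicates 1 and 3 only. In SLC4A7, a bicarbonate transporter, the values were 37, 28 and 20 against 19, 11 and 10, ranges that nearly met without overlap.

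In the remaining genes of the 8 the ranges overlapped or nearly met. NF1, a negative regulator of Ras, had 35, 12 and 9 tags in the 3' UTR against 14, 9 and 5. SBNO1, a helicase-like protein, had 31, 30 and 10 against 11, 9 and 4. TNRC6B, the Argonaute partner that recruits the silencing machinery, had 24, 11 and 8 against 15, 8 and 7. RP1, which binds microtubules in the outer segment, had 7, 9 and 25 against 4, 5 and 6. The number of sites that the tallest was taken from was unequal in several genes: MAP1B had 4 sites in the 3' UTR and 3 in coding sequence, and TNRC6B had 4 and 1. Scaled to peak length, the 3' UTR site stayed above in every replicate in GNAT1, MAP1B, NF1 and RP1. In HIPK3, SBNO1, SLC4A7 and TNRC6B the order then differed between replicates.

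SAG alone of the 16 had its tallest coding site above its 3' UTR site in every replicate, with 14, 15 and 11 tags against 9, 12 and 6. It had 6 coding sites and 1 in the 3' UTR. Scaled to peak length, the 3' UTR site of SAG was the higher in replicate 1. In the other 7 genes the replicates differed in direction or tied. RBP3 had 13, 28 and 18 tags in its 3' UTR and 6, 72 and 26 at coding site 3, and GNB1 had 18, 11 and 9 against 15, 24 and 10. PDE6G had 34, 54 and 41 tags in its 3' UTR site, which began only 74 nt after coding site 2 ended. PRPH2 had the same mean, 16.7 tags, at both, with 26, 14 and 10 in the 3' UTR and 18, 15 and 17 in coding sequence. IMPG2 had 7, 17 and 5 tags at its tallest 3' UTR site, EPM2AIP1, which binds the glycogen-regulating phosphatase laforin, had 5, 9 and 12 against 10, 6 and 5, and HIPK2, a relative of HIPK3, had 7, 6 and 3 against 7, 8 and 6. All coding sites lay upstream of the 3' UTR sites of their gene in all 16 genes, as the order of the classes in a transcript implies. The nearest coding and 3' UTR sites were 1000 nt or less apart in 3 genes, PDE6G, GNAT1 (334 nt) and RP1 (674 nt).

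**Figure D5:**
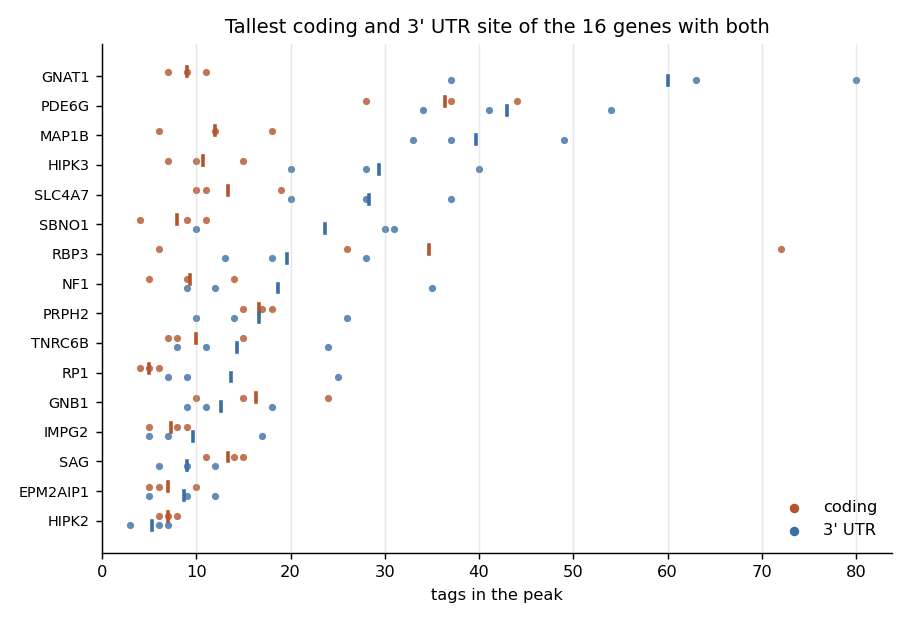
Tags in each replicate (points) and their mean (bar) at the tallest coding site (brown) and the tallest 3' UTR site (blue) of the 16 genes that have both. The 3' UTR site is the taller in all 3 replicates in 8 genes and the coding site in 1, SAG.

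Outside phototransduction 49 genes carried 56 coding sites, and 21 of these genes belonged to another of the 12 lists drawn up. Most members of these lists had no listed site of any class. Among all 258 named genes with a site, miRNA genes left out, 60 (23.3%) carried a coding site. Of 33 genes of photoreceptor structure, cilium and transcription, 8 carried a site and 3 a coding site. These were PRPH2, its partner ROM1, with 7, 16 and 14 tags, and RP1. Of 23 genes of the interphotoreceptor matrix and of retinoid and lipid supply, 5 carried a site and 2, RBP3 and IMPG2, a coding site. The BBSome subunit BBS7, which serves transport in cilia and is in no list, had 5, 7 and 5 tags.

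Neuronal and membrane proteins formed the next group. Of 34 cytoskeleton and axonal transport genes 7 carried a site and 3 a coding site. These were MAP1B, CLTC and the membrane adaptor ANK2, with 10, 9 and 5 tags. Of 30 genes of ion pumps, channels and transporters 6 carried a site and 3 a coding site. Among these were SLC4A7 and CACNA1F, the calcium channel of photoreceptor synapses, with 14, 7 and 6 tags. The 3 peaks in CACNA1F had summits within 1 nt. Of 32 genes of synapse and vesicle traffic 3 carried a site and 1 a coding site, the calcium sensor SYT1, with 11, 6 and 4 tags. The dynein light chain DYNLL2, outside the lists, had 18, 13 and 9, with the same mean of 13.3 tags as SLC4A7.

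Genes of general cell function had coding sites with means from 6 to 10.7 tags, around the coding median of 9. Of 40 genes of miRNA silencing and RNA binding 6 carried a site and 2 a coding site. These were TNRC6B and the RNA helicase DDX5, with 8, 6 and 4 tags. Of 35 energy metabolism genes 3 carried a site and 2 a coding site, GPI and GAPDH, another glycolytic enzyme, with 8, 7 and 8 tags. Of 25 chaperone and protein turnover genes 3 carried a site and 2 a coding site. These were HSP90AA1, with 8, 11 and 11 tags, and HSPA8, with 11, 5 and 5. GAPDH, HSPA8 and HSP90AA1 have processed copies elsewhere in mammalian genomes, and the treatment of tags that match several places is unknown here, so these 3 sites are uncertain. Of 38 kinase, phosphatase and signalling genes 4 carried a site and 2, HIPK2 and HIPK3, a coding site. Of 33 chromatin and transcription genes 5 carried a site and 1 a coding site, the chromatin remodeller CHD7, with 11, 9 and 5 tags. Of 19 translation genes only 1 carried a site of any class, and none a coding site. In none of these lists did a coding site exceed a mean of 10.7 tags.

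A further 28 genes with a coding site were in no list. Transcription and chromatin regulators among them were AHR, a ligand-activated transcription factor, with 15, 7 and 6 tags, ADNP, a homeobox protein, with 12, 11 and 5, and BAZ2A, a subunit of a nucleolar remodelling complex, with 14, 5 and 8. TRPS1, a GATA-type repressor, had 9, 11 and 12 tags, and the zinc finger proteins CASZ1 and ZNF638 had means of 6.67 and 5.33. Signalling and protein turnover were represented by SHC1, an adaptor of growth factor receptors, with 7, 13 and 11, by March6, a ubiquitin ligase of the endoplasmic reticulum, with 8, 17 and 9, and by FBXL5, an F-box protein of iron control, with 9, 14 and 5. TMTC3, an enzyme of the endoplasmic reticulum that attaches mannose to proteins, was among the steadiest sites of all, with 12, 11 and 12 tags.

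The remaining sites had means from 5.67 to 11.3 tags. Of the aminoacyl-tRNA synthetases, which charge tRNAs, FARSA had 11, 8 and 7 tags and SARS 7, 10 and 5. LPGAT1, a lysophospholipid acyltransferase, had 13, 9 and 9, and ALPL, alkaline phosphatase, had 4, 6 and 7. The names TSC22DA and C16ORF72 had 18, 10 and 6 and 9, 10 and 4 tags. The site named UBAP2 had 8, 5 and 5 tags, and its assignment is uncertain given the chromosome above.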

How the data were processed

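HITS-CLIP libraries of bovine retina were analysed from 2 deposited tables, 1 per strand, with 2 header lines each. CASAVA 1.8.1 and GSNAP are named, without their roles, in the submitters' processing notes. Not given in the sources used here were the genome build, the peak caller and the rule by which sites were listed. Coordinates are therefore the authors', counted from 1, and no sequence of a site is printed. Per the file headers, tags are a count per peak and replicate, a score is −10 times the log10 of the peak's p-value, and the fold enrichment is a ratio over a background the headers do not describe. The deposited score was at least 202.97 in every coding peak. The minus-strand table has 1 further column, equal to the mean of the tags of a line, which was not used.

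Location classes were read without regard to case. The class was the rule for a member, so lengths and tags did not enter the rule, while the position of a site in its gene defines the class. Tags were not scaled, except in the exact multinomial test, which ran over all 402 sites with Benjamini-Hochberg adjustment and was checked on simulated data. Classes were compared by their medians within each replicate, with an exact sign-flip permutation over replicates, since sites are not replicates. Depth is known only for tags in listed sites, and intervals cover counting error only, as no molecular identifiers are mentioned. Sites, gene lists (375 entries in 12 lists) and tests were chosen with earlier results of these data known. Values per replicate follow a rule on height, number of sites, class, length, summit spread and list, and those of other genes were added after they were seen. Alternatives were each replicate left out, sites of 10 tags or more, sites within 100 nt merged, other scales (among them log2 with a pseudocount of 1), and each strand alone. Chosen after the data were seen were the ends of peaks, fold enrichment steps, sites of 100 nt or less and the RBP3 site left out. The software was scipy 1.17.1, matplotlib 3.10.9, pandas 2.3.3 and numpy 2.4.6 under Python 3.11.15. Some genes with a coding site are not reported here by name and are not drawn, though counts and medians over all coding sites include them.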

Additional observations from a re-analysis of the deposited data

How the results depend on the processing

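No paired analysis was possible because there is 1 group of samples, so no groups could be paired; classes of sites were compared within each replicate. Coding peaks stayed shorter than 3' UTR peaks under every alternative run, with differences from -24.3 to -11 nt. The difference in median tags turned from -2 to 0.25 when tags were scaled to 100 nt of peak, and was 0 with fold enrichment steps. Under the other alternatives in tags it stayed between -2.67 and -1. Among sites of 10 tags or more it was -2 ± 2.65 (SD, n = 3, exact sign-flip permutation, p = 0.5), less than its spread. The difference in summit spread, -5 nt, was -2 to -1 with 1 replicate left out, where only 2 summits enter, -4 among sites of 10 tags or more, -7 for plus-strand and -2.5 for minus-strand sites (chosen after the data were seen), and -0.026 as a share of peak length. The difference in peak length between genes with coding sites only and the rest ran from -6.75 to 1 nt with 1 replicate left out and was 1.17 nt among sites of 10 tags or more, so it has no direction. The number of coding sites past the exact multinomial test was 0 without replicate 1, 1 without either of the others and 2 without scaling. In the lists, 52 coding sites fell to 23 with a mean of 10 tags or more. Merging within 100 nt joined no sites. The excess of 5' over 3' end spread, 14 nt, was 7 to 9 with 1 replicate left out, 22 among sites of 10 tags or more, 9 for plus-strand and 19.5 for minus-strand sites. Depth limits single sites: the coding median of 6 tags in replicate 3 has a counting interval from 2.2 to 13.1.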
